A study of Eptatretus atami with 13 samples.

Results

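In the brown hagfish *Eptatretus atami*, 61 of 37562 gene models met a rule for higher levels in both blood cells and intestine than in the other 11 organs sampled. They were chosen from the measured levels themselves. A model was taken when the lower of its blood cell and intestine levels was at least 5 FPKM (the count per kilobase of exon, scaled to the library total, computed from the deposited counts) and at least 2 times its level in the highest of the other 11 organs. This held for 0.162% of all models and for 0.800% of the 7622 models with at least 5 FPKM in both organs. These choosing values are given below as a description, without a test.

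RNA was sequenced from blood cells and intestine and from gills, skin, slime gland, ovary, kidney, liver, gall bladder, heart, skeletal muscle of the tongue, brain and adipose tissue, with 1 library per organ. All libraries carry the labels of wild-type animals and normal embryonic development, and no drug or other agent is named. The sources used here do not give age, sex or the number of animals behind a library. With 1 library per organ there is no replicate error, no difference between organs was tested, and the intervals below (95%, exact, on pairs of counts) cover counting error only. Counts assigned to models ranged from 18800367 to 39077785, with 25295529 in blood cells and 29215712 in intestine. The library labelled adipose tissue had levels close to those of brain (r = 0.978 across 19238 models, which are not independent replicates), so it is called the library labelled adipose tissue, and leaving it out changed no membership.

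Blood carries red cells, which hold haemoglobin and carry oxygen, and white cells of the immune system. Hagfishes have no separate spleen, and tissue with developing blood cells lies in the wall of their gut. The intestine also holds an absorptive epithelium, muscle, nerve and connective tissue, so a library of the whole organ mixes many cell types. In such bulk samples, fewer cells of a type and less RNA per cell cannot be told apart.

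The rule drew together models of unlike balance between both organs. Levels of the 61 ran from 5.29 to 494 FPKM in blood cells (median 58.5) and from 5.84 to 5697 FPKM in intestine (median 31.9). Blood cells were the higher organ for 38 members and intestine for 23. The same share over the 7622 models was not computed. Their median log2 ratio of intestine to blood cells was −0.44, so most of them were higher in blood cells too. With membership held, the other scalings described below gave 35 to 39 members higher in blood cells. Together the members took 0.816% of the counts in blood cells and 1.55% of those in intestine. In the other organs their share lay between 0.00538% in tongue muscle and 0.0778% in gills. Of the 61, 52 had counts above 0 in all 13 libraries, and the same share over other models was not computed. Such counts could be as low as 2, as for EA82118 in tongue muscle.

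**Figure D1:**
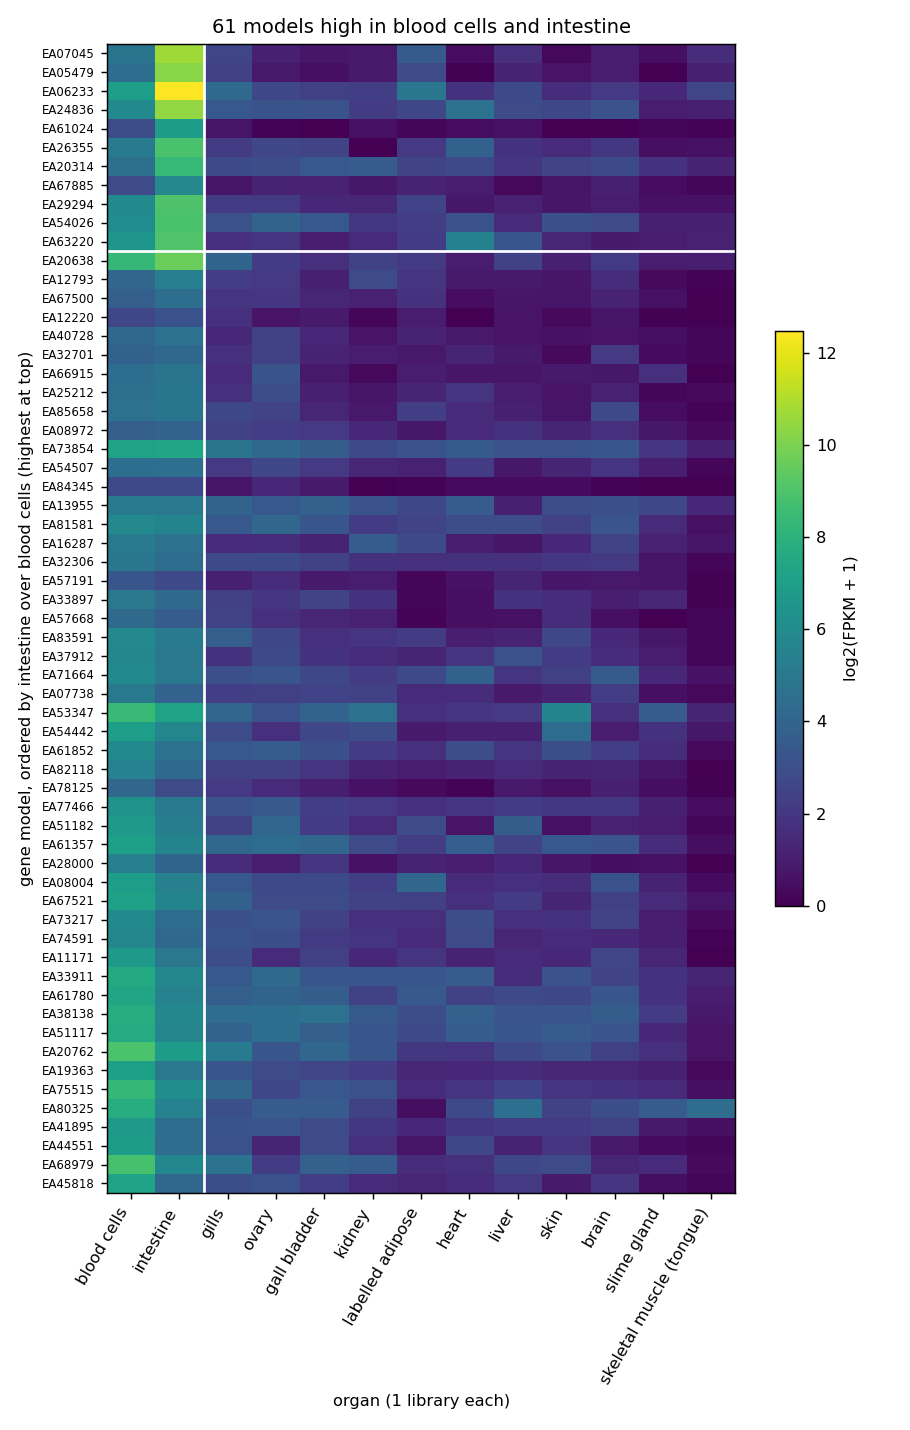
Levels of the 61 members (rows) in 13 organs (columns, 1 library each) as log2(FPKM + 1), ordered by intestine over blood cells with the highest at the top. The left pair of columns is blood cells and intestine, and the 11 models above the horizontal line had at least 4 times more in intestine, up to 5697 FPKM.

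EA20638 stood furthest above the other organs. This model (chromosome 13, 18970910 to 18987415, minus strand, 4 exons) had 313 FPKM in blood cells and 787 FPKM in intestine. Its other 11 levels ran from 1.005 FPKM in heart through a median of 3.29 to 15.1 FPKM in gills. Blood cells, the lower of the pair, were therefore 20.8 times the next organ (interval 16.6 to 26.6). Intestine exceeded blood cells 2.51-fold (2.39 to 2.64). No protein name or domain was given for EA20638 in the tables used here.

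The next widest margins belonged to EA29294 and EA61024, both far higher in intestine. EA29294 (chromosome 5, 108826552 to 108854081, plus strand) had 59.8 FPKM in blood cells and 503 FPKM in intestine, against 0.507 to 4.67 FPKM (median 1.19) in the other 11, which is 12.8 times the highest of them (10.4 to 16.02). EA61024 (chromosome 4, 24842372 to 24923675, minus strand) had 6.75 and 114 FPKM, against 0 (in brain, gall bladder and skin, which allows up to 0.290 FPKM) to 0.641 FPKM (median 0.139), or 10.5 times (3.33 to 52.5). The wide interval of EA61024 comes with 85 counts in blood cells and fewer in gills. These and EA20638 were the 3 members at 10 times or more. The margin of EA61024 depended on the scaling, at 3.43 under TMM factors, 3.21 under DESeq2 size factors and 6.05 on totals without the 10 highest models, where EA29294 kept 11.3 to 16.2 and EA20638 kept 15.8 to 25.9.

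EA73854 was the most even of the abundant members. On chromosome 3 (110458112 to 110467294, plus strand, 6 exons) it had 149.6 FPKM in blood cells and 158 FPKM in intestine, a ratio of 1.06 (1.02 to 1.10). The other organs lay between 1.12 FPKM in tongue muscle and 26.4 FPKM in gills, with a median of 7.88, so that the lower of the pair was 5.66 times the next organ (5.22 to 6.16). EA28000 (chromosome 5, 138675383 to 138821797, minus strand) completed the 5 widest margins, at 42.5 FPKM in blood cells, 15.3 in intestine and 2.76 in gall bladder, the highest of the others (5.55 times, 3.85 to 8.53). That place holds for the scaling used here, since its margin was 2.74 under TMM factors and 2.58 under DESeq2 size factors.

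Most margins were narrower. The lower level of the pair was 2.02 to 20.8 times the highest other organ, with a median of 2.97. It reached 3 times in 28 members and 4 times in 14, and the low end of the counting interval was at least 2 in 44. Just inside the limit of 2 were EA74591 (2.02 times, gills next) and EA80325 (2.03 times, liver next), and just outside were EA33932 (1.98) and EA51123 (1.97). At the limit on the level, EA12220 (5.29 FPKM) and EA84345 (5.84 FPKM) were inside, and EA09587 (4.93 FPKM) and EA72819 (4.26 FPKM) were outside. A further 35 models had the level and a margin of 1.5 to 2 times, and 13 had the margin at 1 to 5 FPKM.

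Membership also depends on how the libraries are scaled. The 3 other scalings were TMM factors, DESeq2 size factors, and totals without the 10 highest models. Under these the rule gave 78, 71 and 77 models, so models from outside the 61 also came in. Of the 61, 48, 45 and 57 still met the rule, and 45 met it under all of them. EA20638, EA73854, EA29294, EA61024 and EA28000 were among those that stayed in. EA80325 did not, and its lower level fell below that of the highest other organ under each of the 3, as did that of EA51182 under TMM and DESeq2 factors.

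The rule fixes that blood cells and intestine are above the other 11 organs, but not which of both is higher. The log2 ratio of intestine to blood cells had a median of −0.74 over the members, against −0.44 over all 7622 models with at least 5 FPKM in both. Another scaling shifts this ratio by the same amount for every model, so the distance between the medians, −0.30, stayed, while the median over the 7622 was −0.15 under TMM factors, −0.14 under DESeq2 size factors and −0.49 on totals without the 10 highest models. Members were spread more widely, with quartiles at −1.53 and 0.48 against −0.86 and 0.07, and a range from −3.10 to 5.95. Blood cells were at least 2 times intestine in 28 members (45.9%, against 18.6% of the 7622). Intestine was at least 2 times blood cells in 13 (21.3%, against 6.47%), and 20 lay within 2 times. A gap in the log2 ratios between 1.33 and 2.51 set 11 members with far more in intestine apart from the other 50. This gap was seen after the values were known, and the 11 are also the members with at least 4 times more in intestine (18.03%, against 2.18%). With membership held as chosen here, the count of 11 was the same under all 4 scalings. Only 7 of the 11 still met the rule for members under every scaling.

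**Figure D2:**
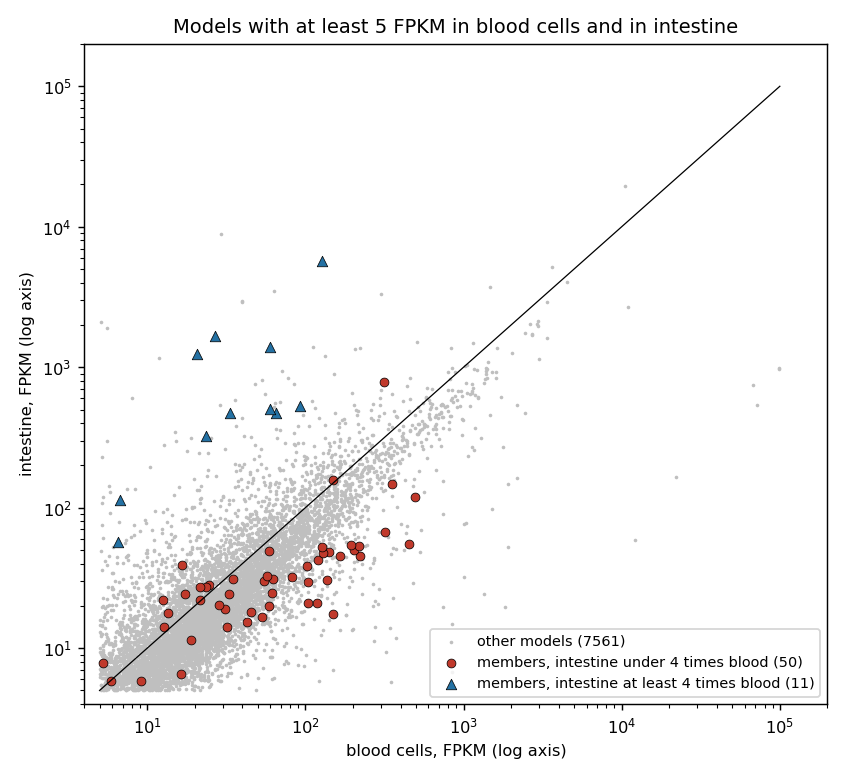
Intestine level against blood cell level (FPKM, log axes) for the 7622 models with at least 5 FPKM in both organs, with equal levels on the line. The 11 intestine-high members (triangles, 56.7 to 5697 FPKM in intestine) lie well above the line, and most of the other 50 (circles) lie at or below it.

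Among the 11 intestine-high members, intestine levels ran from 56.7 to 5697 FPKM (median 503) and blood cell levels from 6.56 to 128 FPKM (median 33.3). Intestine was 5.70 to 61.9 times blood cells. Their next organ was the library labelled adipose tissue for 5, heart for 3, and ovary, kidney and gills for 1 each. For most of the other 50, ovary (20) and gills (17) came next. Over the 7622 models the shares were 9.51% for the library labelled adipose tissue, 4.74% for heart, 35.0% for ovary and 14.7% for gills. The 5 include the 3 neighbours on chromosome 16 and the 3 include the close pair on chromosome 5, described below, so these counts are not of independent models. They took 1.22% of all intestine counts, while they made up 0.0540% of the counts in blood cells.

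A run of 3 neighbouring models on chromosome 16 had the highest ratios of all. EA07045 (7149523 to 7248501), EA05479 (7251146 to 7262570) and EA06233 (7290765 to 7337551) lie one after another on the minus strand, with gaps of 2644 and 28194 bases between them. EA06233 had 128 FPKM in blood cells and 5697 FPKM in intestine, where its 154115 counts were 0.528% of the library. EA07045 had 26.9 and 1662 FPKM, and EA05479 had 20.8 and 1243 FPKM. Intestine thus exceeded blood cells 44.5-fold (42.3 to 46.8) for EA06233, 61.9-fold (56.1 to 68.5) for EA07045 and 59.9-fold (51.6 to 70.4) for EA05479. The order of the other organs was alike at its top: in all 3, the library labelled adipose tissue came next (28.7, 10.8 and 6.51 FPKM) and gills after it (18.1, 5.13 and 4.14 FPKM). The remaining 9 organs were at 5.98 FPKM or less for EA06233 and at 2.31 FPKM or less for the other two.

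Further intestine-high members were also close neighbours. EA26355 and EA24836 lie 3672 bases apart on the plus strand of chromosome 5 (67412862 to 67439812). EA26355 had 33.3 FPKM in blood cells and 473 FPKM in intestine, and EA24836 had 60.1 and 1385 FPKM. Heart came next for both, at 13.8 and 24.1 FPKM, above every remaining organ, and under DESeq2 factors both fell just below the rule, with margins of 1.93 for EA26355 and 1.9985 for EA24836. EA63220 on chromosome 4 (24614762 to 24654895, plus strand) had 92.9 and 530 FPKM and again heart as the next organ, at 43.1 FPKM, above liver (9.0004 FPKM) and all others. Under TMM and DESeq2 factors EA63220 fell to 1.80 and 1.73 times the highest other organ, below the rule. EA54026 on chromosome 14 (52456481 to 52482237, plus strand) had 65.0 FPKM in blood cells, 469 FPKM in intestine and at most 14.7 FPKM elsewhere, in ovary. It is 1 of 2 members whose exons overlap another model, so counts made without strand cannot separate the overlapping models.

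The other 50 members were mostly higher in blood cells, at a median of 58.6 FPKM there and 28.8 FPKM in intestine. The strongest of them in blood cells was EA20762 (chromosome 13, 83265143 to 83313514, plus strand), with 494 FPKM in blood cells and 119 FPKM in intestine. Its other organs ran from 0.562 FPKM in tongue muscle through a median of 5.75 to 33.8 FPKM in gills. EA75515 (chromosome 3, 60338076 to 60372097, plus strand) had the same order of organs at the top, with 320.2 FPKM in blood cells, 67.5 in intestine and 16.2 in gills.

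The lowest ratios of intestine to blood cells belonged to EA45818, EA68979 and EA44551. EA45818 (chromosome 2, 51177707 to 51185234, plus strand) had 151 FPKM in blood cells and 17.6 FPKM in intestine, so that blood cells were 8.58 times intestine (7.93 to 9.31). It also overlaps another model, and its margin over ovary (7.70 FPKM) fell below 2 under TMM and DESeq2 factors. EA68979 (chromosome 12, 42311010 to 42318976, plus strand) had 452 and 54.9 FPKM, or 8.23 times (7.34 to 9.28), with gills next at 25.8 FPKM. EA44551 (chromosome 2, 95298690 to 95412325, minus strand) had 118 and 21.0 FPKM, or 5.64 times (5.24 to 6.08), with gills next at 7.71 FPKM. By ratio, the intestine level of all 3 was nearer to that of gills or ovary than to that of blood cells.

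Named proteins were scarce among the members. The names used here cover chromosome 1, which holds 601 of the 7622 models with at least 5 FPKM in both organs but only 2 members. Neither has a gene symbol, and 0 members appear in the orthologue families used here. These families cover only 328 of all 37562 models, so the 0 says nothing particular of the members. EA37912 (46131222 to 46162493, plus strand, 8 exons) carries a TAFH domain, which in vertebrates is found in the transcription cofactors TAF4 and RUNX1T1. It had 54.5 FPKM in blood cells and 29.9 FPKM in intestine, with 0.178 to 7.65 FPKM (median 2.40) in the other organs and the highest of these in liver. EA38138 (26660746 to 26712685, minus strand, 5 exons) carries a CAP-ZIP_m domain, named after proteins that bind the actin capping protein CapZ. It had 217.5 FPKM in blood cells and 53.7 FPKM in intestine, with 0.825 to 24.8 FPKM (median 10.5) elsewhere and the highest in gall bladder. Neither kept a 2-fold margin under TMM factors, where the margins were 1.14 and 1.77 times.

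Outside the pair, members were highest in ovary (21 of 61) or gills (18 of 61). The share for ovary, 34.4%, was near the 35.0% of all 7622 models, so it says nothing particular of the members. For gills the share was 29.5%, against 14.7% of the 7622. That count depends on the scaling: it was 9 of 78 models under TMM factors, 7 of 71 under DESeq2 size factors and 22 of 77 on totals without the 10 highest models. Of the other organs, gills had the highest median over the members (6.26 FPKM), ahead of ovary (5.33 FPKM) and gall bladder (4.16 FPKM). Tongue muscle was the lowest of the other organs for 45 members (73.8%, against 48.5% of the 7622), with a median of 0.249 FPKM. The remaining medians lay between 0.995 FPKM in slime gland and 2.81 FPKM in brain.

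**Figure D3:**
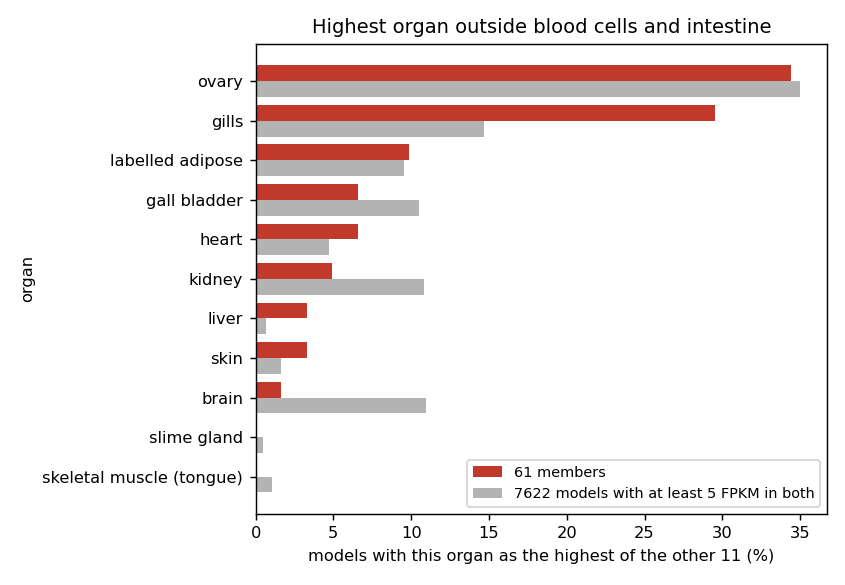
Share of models (%) with each organ as the highest outside blood cells and intestine, for the 61 members and for all 7622 models with at least 5 FPKM in both. Bars for gills differ (29.5% against 14.7%), while those for ovary are alike (34.4% against 35.0%).

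Members could also be set beside models high in blood cells or in intestine whatever their level in the other of the pair. In blood cells, 108 models had at least 20 FPKM and at least 5 times the highest of the 11 organs other than blood cells and intestine, and 31 of them were members. For the 31 the rule fixes intestine above the 11 other organs. Of the 77 that were not members, intestine was the next organ for 28, gills for 21 and gall bladder for 10. The choice of these models limits the 11 other organs but not intestine, so it favours intestine as the next organ here too. The intestine level of the 31 members was 11.7% to 841% of the blood cell level, with a median of 34.6%, as the rule requires of members. Those 77 had a median of 5.90% and a highest value of 39.6%.

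The most abundant of these blood models were not members, and their intestine shares varied. The 6 highest, EA81038, EA80904, EA81930, EA81485, EA80301 and EA82480, had 12100 to 99461 FPKM in blood cells and together took 20.1% of the counts there. None has a name in the tables used here, and they were singled out after their values were seen. The next in level, EA31441 (10899 FPKM), had 24.6% of its blood cell level in intestine, and EA11462 (1460 FPKM), also among the 10 highest, had 31.4%. In intestine the 6 stood at 0.489% to 1.11% of their blood cell level, against 0.537% to 1.21% in gills and 1.08% to 1.75% in gall bladder, where 5 of the 6 were higher than in intestine. Intestine was under 2 times gall bladder in each, so the rule leaves these models out. The lowest intestine share among members higher in blood cells, 11.7%, is set in part by the same rule. For the 38 members higher in blood cells, the rule itself puts intestine at 2 times or more of every organ outside the pair. Their median share of the blood cell level was 37.1% in intestine, 9.77% in ovary, 8.93% in gills and 6.13% in gall bladder. The lead of intestine in these shares follows from the choice of members and tests nothing. How much of any member's intestine level came from blood left in the organ was not tested.

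**Figure D4:**
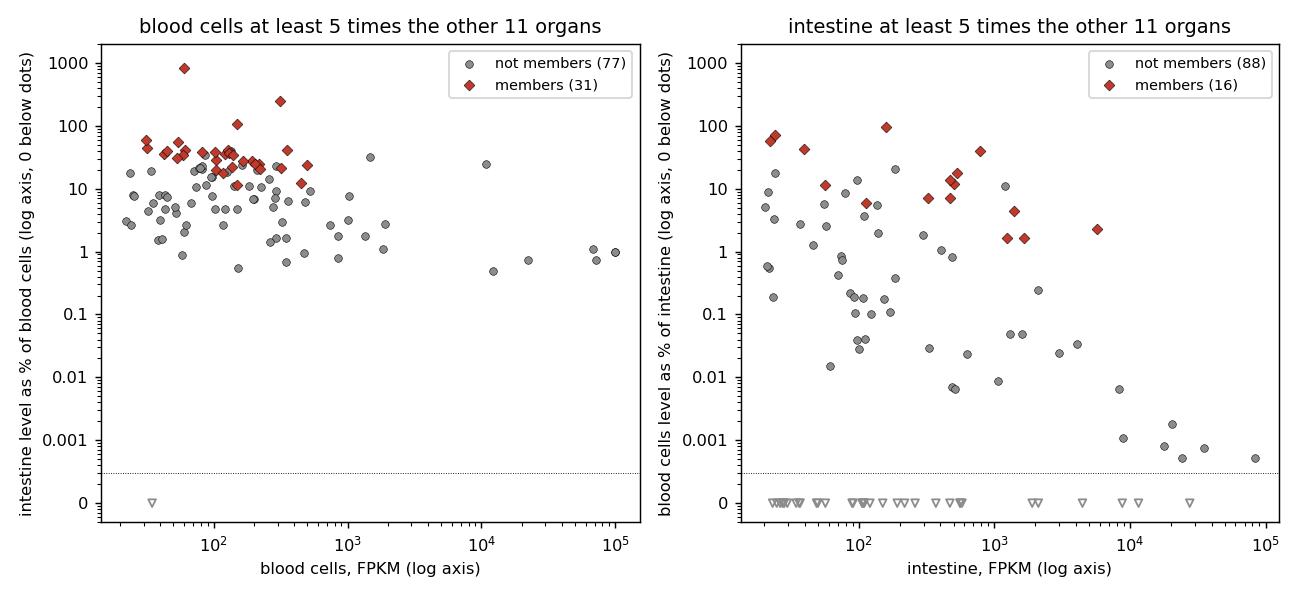
Level in the second organ as a percent of the first (log axis, zeros below the dotted line) against the level in the first (FPKM, log axis), for 108 models at least 5 times the other 11 organs in blood cells (left) and 104 in intestine (right), of which 3 are in both panels, with members as diamonds. In the left panel the 10 most abundant models lie between 0.489% and 31.4% in intestine and members at 11.7% or more, as the rule in part requires.

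In intestine, 104 models had at least 20 FPKM and at least 5 times the highest of the 11 other organs, and 16 of them were members. Blood cells were at 1.62% to 94.5% of the intestine level in these members (median 11.7%). Among the other 88, the median was 0.00795%, and 35 had 0 counts in blood cells, which allows shares of up to 2.19% (3 counts). The 10 most abundant intestine models, at 8256 to 83041 FPKM in intestine, stood in blood cells at 0% to 0.00659% of that level, where a count of 0 allows up to 0.00313%. Since members have at least 5 FPKM in blood cells, the rule keeps shares this low out.

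In the assembly the members were scattered, with some close neighbours. They lie on 16 of the 17 chromosomes, with 7 on chromosome 4, 6 on chromosome 3 and 5 each on chromosomes 5 and 16. Chromosome 6, which holds 5.73% of the 7622 models, has 0. Positions are those of the authors' count table, on the scaffold assigned to each chromosome. Of the 61, 13 had another member within 100 kb (21.3%), whereas 63 of the 7561 other models with at least 5 FPKM in both organs lay that near a member (0.833%). They fall into 6 groups. The count was 20 of 78 models under TMM factors, 18 of 71 under DESeq2 size factors and 21 of 77 on totals without the 10 highest models. The share of other models near a member was not computed for these scalings.

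Neighbouring members often had like ratios of intestine to blood cells, and how often members further apart did was not computed. Models within these groups that are no members had other ratios, or 0 FPKM in both organs. Beside the groups on chromosomes 16 and 5 described above, EA61852 and EA61357 lie 79 bases apart on the plus strand of chromosome 4 (161329021 to 161422612), with ratios of 0.406 and 0.364 and ovary as the next organ for both. EA54442 and EA53347 on chromosome 14, on opposite strands with 11960 bases between them, had ratios of 0.409 and 0.420, and skin was next for both (20.2 and 46.7 FPKM). EA54821, no member, spans EA54442 on the other strand and had 1299 FPKM in heart and 1.47 FPKM in blood cells. EA67500 and EA66915 on chromosome 8 had ratios of 1.76 and 1.27. EA66816, no member, lies within the span of EA67500 on the other strand and had a ratio of 0.131. EA64902, no member either, lies between EA67500 and EA66915 and had a ratio of 0.393. In the last group, on chromosome 5, EA25212 had 23.7 FPKM in blood cells and 27.5 in intestine, a ratio of 1.16, where its neighbour EA29294 had 8.41. EA25707, no member, lies between them and had 0 FPKM in both organs. Whether neighbours on 1 strand are pieces of 1 gene or copies of each other was not tested. The neighbours outside the chromosome 16 trio were named after their values were seen.

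In exon length, member models were somewhat shorter than the 7622 models with at least 5 FPKM in both organs, which include them. These were not matched for level, since the others had medians of 25.9 FPKM in blood cells and 19.7 FPKM in intestine. Exon length had a median of 1281 bases, against 1553 over the 7622, and the median number of exons was 5 against 8. The span on the chromosome was close, at 38.6 kb against 40.9 kb. Single-exon models were 1 of 61 (1.64%) against 2.40%, and models with exon overlap were 2 of 61 (3.28%) against 6.61%.

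The same rule was applied to all 78 pairs of organs, to place this one. Blood cells and intestine were in place 4, with 61 models, after the library labelled adipose tissue with brain (1325), gills with skin (167) and gills with ovary (66), and just ahead of gall bladder with intestine (60). The median pair had 5. Brain and the library labelled adipose tissue had close levels, so each can hardly meet the rule with another organ. Apart from each other, their largest counts were 6 for brain (with ovary) and 8 for the labelled library (with gills). Such pairs are counted in the median, and a median without them was not computed. Blood cells shared 42 models with gills and 30 with ovary, and intestine shared 43 with kidney. The pair was in place 4 under TMM factors and without the 10 highest models, and in place 6 under DESeq2 size factors.

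Marker genes with symbols, all on chromosome 1, showed what else both libraries held. Of 12 intestinal epithelium genes, 11 were at least 2-fold above the median of the other 12 organs in intestine (against 9.85% of 19238 models). In blood cells 2 were (against 11.4%). Intestine was the highest organ for only 5 of the 12, and their summed level was 1724 FPKM there, against 2406 FPKM in the highest organ. *LCT-1*, named after the milk sugar enzyme of the brush border, had 516 FPKM in intestine and 0.0335 FPKM in blood cells. *LCT-2* had 138 and 2.75 FPKM, and *TYMP-2*, a thymidine phosphorylase, had 65.2 and 0 FPKM (0 counts, which allows up to 0.237 FPKM). *GPX2*, a glutathione peroxidase of gut lining, had 321 FPKM in blood cells and 800 in intestine, but kidney had 2020 FPKM. Its level in blood cells was not 2-fold above the median of the other 12 organs (log2 difference 0.47). The list had a median log2 difference of 3.65 in intestine and 0.07 in blood cells, where its sign turned under TMM factors (−0.04).

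Of 12 blood transcription factors, 8 had a higher level in blood cells than in intestine and 3 a lower one. Most of the 7622 models with at least 5 FPKM in both organs were also higher in blood cells (median log2 ratio −0.44). The count of 8 is therefore not particular to the list. Only 2 were at least 2-fold above the median of the other 12 organs in blood cells, near the 11.4% of all models, and 0 in intestine, with median log2 differences of 0.23 and −0.59. In gills 5 were (against 23.1% of all models). *LYL1-1*, a helix-loop-helix factor of early blood cells, had 170.9 FPKM in blood cells, 35.6 in intestine and 37.1 in ovary. *KLF2-1*, a zinc finger factor of lymphocytes and vessel lining, had 85.2 FPKM in blood cells and 1.49 in intestine. *ZBTB16-1* had 23.3 and 12.5 FPKM, and *STAT5B-3*, a relay of cytokine signals, had 13.8 and 4.49 FPKM, but both were higher in gills (29.3 and 17.4 FPKM).

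For 10 genes of haem and red cells, 4 were at least 2-fold higher in blood cells and 1 in intestine. Over all models the shares were 11.4% and 9.85%. The medians were 0.73 and −0.71, while brain had 3 such genes and a median of 0.78. For brain the share over all models was not computed. Over models with at least 1 FPKM in any organ, the median was 0.44 in brain, 0 in blood cells and −0.09 in intestine. Summed levels of the list were 283 FPKM in blood cells, against 400 FPKM in the highest organ. *UROS*, an enzyme of haem synthesis, had 125 FPKM in blood cells and 12.5 FPKM in intestine, below the library labelled adipose tissue (34.8 FPKM). *EDRF1-1*, a regulator of red cell genes, had 49.8 and 12.9 FPKM. *PPOX*, another haem enzyme, had 27.2 and 18.3 FPKM, and the haem transporter *SLC48A1-1* had 24.997 and 12.8 FPKM. Ovary was above both organs for *PPOX* (32.9 FPKM) and *SLC48A1-1* (46.6 FPKM).

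For 14 genes of leukocyte signalling, 2 were at least 2-fold higher in blood cells and 1 in intestine. Both counts were near the shares of all models, 11.4% and 9.85%. The medians were 0.12 in blood cells and −0.20 in intestine, the second turning to 0.02 under TMM factors. In gills 9 of the 14 were at least 2-fold higher (against 23.1% of all models). Levels were higher in blood cells than in intestine for 7 and lower for 5, while most of the 7622 models were also higher in blood cells. *WIPF1*, a partner of the Wiskott-Aldrich protein, had 74.3 FPKM in blood cells and 19.4 in intestine. *TBK1*, a kinase of innate immunity, had 61.6 and 55.4 FPKM with 97.3 in gills, and *CASP8*, a protease of cell death, had 60.5 and 43.2 FPKM with 58.3 in gills. *BTN2A2*, of the butyrophilin family, had 14.8 and 6.44 FPKM.

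Cell division genes, which mark dividing cells of any type, had medians of 0.78 in blood cells and 0.46 in intestine. At least 2-fold higher were 9 and 4 of 20, against 11.4% and 9.85% of all models. *CDC25B-1*, a phosphatase that starts mitosis, had 72.8 FPKM in blood cells and 54.3 in intestine, and *SMC4-2*, a condensin subunit, had 52.7 and 44.8 FPKM. *CDK1-2*, the mitotic kinase, had 37.3 and 38.0 FPKM, and *HASPIN*, a histone kinase, had 25.3 and 12.7 FPKM. Ovary was above both organs for *CDC25B-1* (93.1 FPKM) and *CDK1-2* (141 FPKM). No gene of these lists could be a member, since all have a symbol and lie on chromosome 1, where no member has a symbol. What part dividing or immature blood cells had in the members' levels was not tested.

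**Figure D5:**
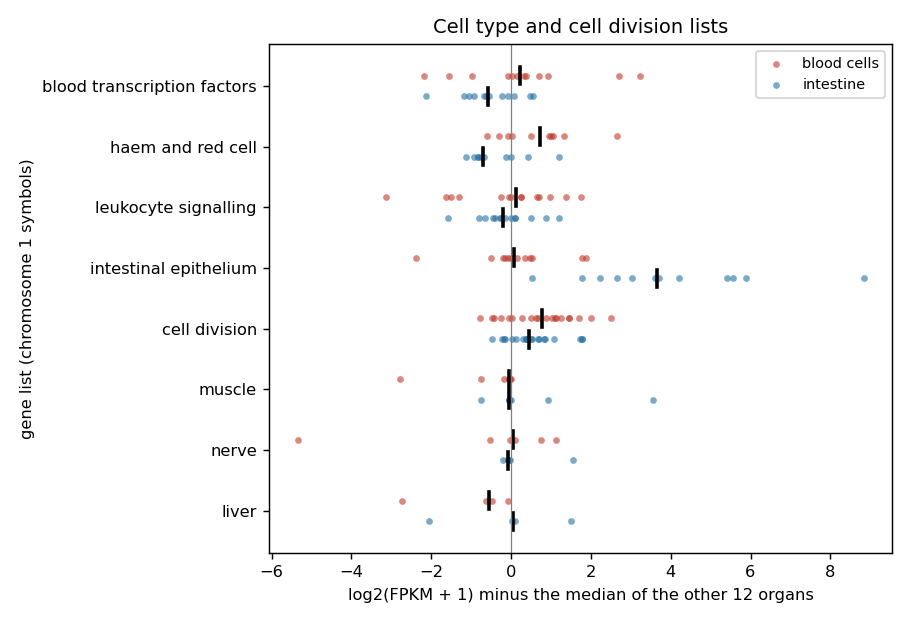
Difference in log2(FPKM + 1) of blood cells and of intestine from the median of the other 12 organs, for genes of 8 lists (1 point per gene, bar at the median). The intestinal epithelium list lies to the right in intestine (median 3.65) and near 0 in blood cells (0.07).

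Lists of other cell types were far below their highest organ in both libraries, though single genes stood out in intestine. Of 7 muscle genes measured, 5 had 0 counts in blood cells, a share not computed over all models. *MYL2-1*, a myosin light chain, had 39.1 FPKM in intestine and 2.53 in blood cells, against 28576 in tongue muscle. *LMOD1* had 6.27 FPKM in intestine and 0 in blood cells (0 counts), and was highest in gall bladder (72.2 FPKM). How much muscle tissue the intestine library held was not tested. Summed muscle levels were 2.55 FPKM in blood cells and 45.4 in intestine, within a range of 0.610 to 28641 over the organs and with a median organ at 30.0016. Summed liver genes were at 4.63 FPKM in blood cells and 19.2 in intestine, against 7849 FPKM in the highest organ. Summed nerve genes were at 96.1 and 165 FPKM, within a range of 27.7 to 1060 and with a median organ at 145. In nerve, *SYNPR-2*, a synaptic vesicle protein, made up nearly all of the blood cell value (93.5 FPKM, with 55.2 in intestine), and *RAB3A-2*, a GTPase of vesicle release, most of that in intestine (109 FPKM, with 0.0534 in blood cells).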

How the data were processed

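Total RNA of 13 organs was sequenced with strand-specific TruSeq libraries, 1 per organ. STAR (2.5.2b) was the authors' aligner. Their featureCounts run (1.6.1 per the file header) assigned read ends to exons, which gave the deposited raw counts of 37562 models and the summed exon length of each. Neither pairs nor strand were set in counting, so overlapping models and near-identical copies are uncertain.

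FPKM was computed as count × 1e+09 / (column total × exon length). Members and lists were chosen with earlier results of these data known. Ratios of counts have exact Clopper-Pearson intervals (95%) on pairs of counts. Lists used log2(FPKM + 1), and 85 of 86 genes were measured. Symbols and domains came from the rows of the study's table of chromosome 1 in which ID and position agree (1966), 1027 with a symbol. No sequence was used, and 1 model with a symbol is not reported here.

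Named are members with a domain, the 10 highest in the lower organ, the 5 widest margins, and the 3 highest and 3 lowest ratios of intestine to blood cells. Also named are the largest group of neighbours, the models nearest each threshold and up to 4 of the highest genes per list. Alternatives were TMM factors (edgeR 4.0.16), DESeq2 (1.42.0) size factors, totals without the 10 highest models, other limits of level, margin, counts and distance, and another pseudocount. The code of the rule was run on simulated counts with planted folds, the same profile in all organs and counting error only. That run checks the code and says nothing about biological error. Software was Python 3.11.15 (scipy 1.17.1, pandas 2.3.3, numpy 2.4.6) and R 4.3.3.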

Additional observations from a re-analysis of the deposited data

How the results depend on the processing

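No paired analysis was possible because each organ has 1 library, and no library could be left out of either organ. Of 93 alternatives to the counts, medians and the place of the pair, 83 stayed within 1.5 times of the count or within the interval of the median. That interval, not printed here, comes from the ordered values of the genes, treats them as independent and is no counting error. A sign change of a list median below the 2-fold level was judged by the same interval. With a margin of 1.5 times the rule gave 96 models, and with 3 times 28, of which 22 and 4 had a member within 100 kb, and 9 of the 28 had gills as the next organ. These changes follow from the number of models admitted. Gills came next for 9 of 78 models under TMM factors and 7 of 71 under DESeq2 size factors. A near member was found for 20 of 78 models under TMM factors and 21 of 77 on totals without the 10 highest models. Within 20 kb it was found for 8 of the 61. The cause of the changes under other scalings was not tested.

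The lower level of EA51182 over its highest other organ was 0.950 under TMM factors and 0.894 under DESeq2 factors, and that of EA80325 was 0.592, 0.558 and 0.828 under TMM factors, DESeq2 factors and totals without the 10 highest models. Leaving out overlapping models gave 59, a minimum of 20 counts or leaving out the library labelled adipose tissue gave 61, and limits of 2 and 10 FPKM gave 67 and 55. Without replicates, none of these values has a biological error.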

Other observations

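Beyond the members, 251 models with at least 1 FPKM in both organs had blood cells and intestine as their highest pair, 196 of them with at least 5 FPKM in both (2.57% of 7622). Few of these have a symbol, and those given here are named because of it, after their values were seen. *DPT-1*, named after dermatopontin, a protein of connective tissue matrix, missed the margin narrowly, with 38.5 FPKM in blood cells, 185.5 in intestine and 19.7 in skin (1.96 times). *INPPL1-1*, an inositol phosphatase, had 81.2, 18.4 and, in gills, 9.92 FPKM (1.85 times). The margins of *SRSF3-2*, a splicing factor, *ADAM12-1*, a metalloprotease, *GTF2IRD2B-5* and *CEP83*, a centriole protein, were 1.18, 1.11, 1.05 and 1.02 times.

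EA31441 and EA11462, the abundant blood models with the highest intestine shares, did not meet the rule, since intestine (2677 and 459 FPKM) was 1.97 times gills for EA31441 and 1.61 times ovary for EA11462. Both were picked after their values were seen, and no name was given for them in the tables used here.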
